A study of Rattus norvegicus with 6 samples.

Results

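The small heat shock proteins were followed in RNA-seq libraries of rat aorta. The family comprised Hspb1, Hspb2, Hspb3, Hspb6, Hspb7, Hspb8 and Cryab, 7 genes of the 24005 symbols in the deposited table. Its genes were taken by symbol, and the family was chosen from earlier results on FPKM in the same libraries, where heat shock genes stood out by their exosome and saline values. The group differences, library orders and spreads given here therefore describe the genes and do not test the choice. Of the 7 genes, 6 were above 0 and had a mean of at least 1 FPKM over the 6 libraries (FPKM is the read number scaled to gene length and to the library's total), as did 11742 genes in all. Each of the 6 was above 1 FPKM in every library and entered the fit, and Hspb3 was at 0 throughout.

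All rats had chronic kidney disease, made by removing 5/6 of the kidney mass in 2 operations, and ate a diet with 1.2% phosphorus to speed up calcification. The exosome group (3 libraries) was given ANCR/E7-EXO, an engineered exosome, at 10 mg/kg into the tail vein every 5 days. The saline group (3 libraries) received an equal volume of saline over 13 weeks. The groups had the kidney disease and the diet in common, and no healthy aorta was analysed here. The labels do not give the strain, sex or age of the rats, nor whether separate rats were used for the libraries, so p-values measure only the spread between these libraries, which may be partly technical. In this bulk tissue, fewer cells of a type and less RNA per cell cannot be told apart. Library totals implied by the FPKM values ran from 28063355 to 44561082 reads. The tissue label matched its markers: Tagln and Acta2, which encode smooth muscle proteins, lay between 4584 and 9086 FPKM in every library.

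Small heat shock proteins are ATP-independent chaperones built around a conserved alpha-crystallin domain. They hold unfolding proteins in large oligomers until the ATP-driven chaperones HSP70 and HSP90 refold them, and several of them protect actin and intermediate filaments in muscle. Heat shock factor 1 (HSF1) binds heat shock elements, which are inverted repeats of the letters GAA and TTC, and switches on some family members under protein stress, while other members are kept on by muscle transcription factors. In arteries, HSPB1 and HSPB6 are phosphorylated during contraction and relaxation of smooth muscle.

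Promoter sequences of 5 of the 7 genes were found in the RefSeq table of rat build GRCr8. Those of 4 measured genes are shown because these genes differed in how much they varied between libraries, and that of Hspb3, which had no reads, was searched for motifs only. Matching was by symbol, and no promoter was used for Cryab or Hspb2. Each line gives the 250 bases before the annotated start, 5′ to 3′ on the gene's own strand, with motif matches in capitals. In Hspb1, Hspb8 and Hspb6 the capitals mark heat shock element pairs, GAANNTTC or TTCNNGAA, and in Hspb7 a match to the site of MEF2, a muscle transcription factor. The windows were chr12:26432302-26432551 on the minus strand for Hspb1, chr12:45837058-45837307 on the plus strand for Hspb8, chr1:94934122-94934371 on the plus strand for Hspb6 and chr5:159010509-159010758 on the plus strand for Hspb7.
Hspb1: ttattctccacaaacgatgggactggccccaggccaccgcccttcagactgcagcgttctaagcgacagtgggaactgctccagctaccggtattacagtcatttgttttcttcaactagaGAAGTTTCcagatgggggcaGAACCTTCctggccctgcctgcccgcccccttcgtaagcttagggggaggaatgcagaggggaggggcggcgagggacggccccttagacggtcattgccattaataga
Hspb8: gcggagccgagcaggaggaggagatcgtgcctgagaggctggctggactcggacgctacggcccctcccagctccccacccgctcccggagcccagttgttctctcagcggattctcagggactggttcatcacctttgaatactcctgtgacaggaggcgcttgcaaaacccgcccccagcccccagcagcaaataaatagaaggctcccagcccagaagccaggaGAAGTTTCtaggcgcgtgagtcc
Hspb6: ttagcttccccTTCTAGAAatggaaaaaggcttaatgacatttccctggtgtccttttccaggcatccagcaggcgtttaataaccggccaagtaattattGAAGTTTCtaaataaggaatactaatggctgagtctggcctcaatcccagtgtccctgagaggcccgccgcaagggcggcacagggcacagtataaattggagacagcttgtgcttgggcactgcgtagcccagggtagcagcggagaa
Hspb7: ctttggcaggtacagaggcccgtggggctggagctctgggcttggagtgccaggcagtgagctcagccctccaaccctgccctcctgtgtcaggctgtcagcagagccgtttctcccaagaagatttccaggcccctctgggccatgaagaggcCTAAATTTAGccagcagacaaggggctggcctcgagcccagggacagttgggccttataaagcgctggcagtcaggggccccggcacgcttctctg

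Hspb1 held 2 pairs of the GAANNTTC kind, starting 129 and 109 bases before the start. Hspb8 held 1 such pair, 23 bases before the start. Hspb6 held 1 pair of each kind, GAANNTTC at 149 bases and TTCNNGAA at 239 bases. Hspb7 held no pair and a MEF2 match at 96 bases, and Hspb3 had a MEF2 match at 51 bases. Both pair patterns match the same positions on either strand. Of the 27457 rat genes with a promoter in the table, taking the first listed start of each, 13.2% held at least 1 pair of either kind in this window and 1.74% a MEF2 match on either strand. Triples (GAANNTTCNNGAA or TTCNNGAANNTTC, each the reverse complement of the other, and each containing both kinds of pair) were in 0.597% of promoters and in none of the 5. No CArG box, the site of serum response factor, was found in the 5, against 1.5% of all promoters. A match describes these letters only and says nothing on binding in the aorta.

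**Figure D1:**
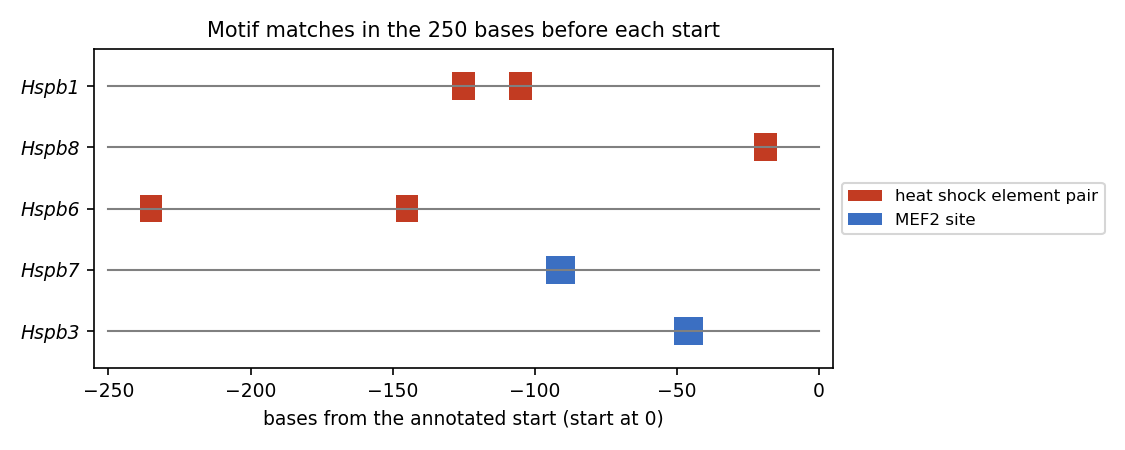
Motif matches in the 250 bases before the annotated start of the 5 genes with a promoter sequence, where the horizontal axis is the distance from the start in bases, with red boxes for heat shock element pairs and blue boxes for MEF2 matches. Hspb1 and Hspb6 hold 2 pairs each, Hspb8 holds 1, and Hspb7 and Hspb3 hold a MEF2 match each.

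The family spanned a wide range of levels in the saline aorta. On the FPKM scale, which is per length and so allows genes to be compared, Hspb1 had the highest saline mean at 808 ± 346 (SD, n = 3 for this and all means below), and Cryab followed at 292 ± 197. Hspb2 at 71.0 ± 5.29 and Hspb6 at 67.6 ± 8.61 overlapped in their values and did not differ beyond their spread. Hspb7 stood at 20.8 ± 12.8 and Hspb8 at 8.57 ± 1.04. Hspb1 was above Cryab, and Cryab above the other 4, in each of the 6 libraries. Hspb1 made up 56.6% to 82.5% of the summed FPKM of the 6 genes, and this sum ran from 643 in exosome 2 to 6598 in exosome 3. In exosome 3 only 5 genes of the whole table had a higher FPKM than Hspb1, which ranked 6, while in exosome 2 it ranked 157.

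Hspb3, a muscle member that forms complexes with HSPB2, had 0 reads in every library. A count of 0 allows up to 3 reads, which is 0.0673 to 0.107 CPM (reads scaled to the library total) across these libraries (counting error only). Of the family members outside the 7, the testis gene Odf1 and the lens gene Cryaa were also at 0, and the testis gene Hspb9 had 0 to 12 reads per library. For the 6 genes above 0, the lowest read number in any library was 419, for Hspb8 in exosome 2, so that counting error was at most 4.89% of a value and small beside the spread between libraries.

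Hspb1 encodes HSP25, the rodent form of HSP27, which binds actin and is a target of the kinase MK2. Its values were 1167, 477 and 779 FPKM in saline 1, 2 and 3, and 2803, 364 and 5444 FPKM in exosome 1, 2 and 3. Exosome 1 and 3 lay above all saline libraries and exosome 2 below all of them, so the groups overlapped. Exosome 3 was 14.98 times exosome 2, whereas the saline libraries differed by at most 2.45 times. The group means were 808 ± 346 and 2870.1 ± 2541 FPKM, a ratio of 3.55. On the log2(FPKM + 1) scale, exosome minus saline was 1.22 ± 0.91 (SE; 95% interval from -0.90 to 3.35). With limma, its p after Benjamini-Hochberg adjustment across the tested genes was 0.504. The difference was 0.42 without exosome 3 and 2.37 without exosome 2.

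Cryab encodes alpha-B-crystallin, a chaperone of desmin filaments. It stood at 519.3, 164.6 and 192.7 FPKM in saline 1, 2 and 3 and at 520.4, 118.9 and 825.5 FPKM in exosome 1, 2 and 3. Saline 1 and exosome 1 were at nearly one level, exosome 3 was highest and exosome 2 lowest of the 6. The ratio of the group means was 1.67, and the log2 difference was 0.54 ± 0.73 (SE), with a limma adjusted p of 0.710. Without exosome 3 this difference was -0.03, and without exosome 2 it was 1.36. Centred profiles over the 6 libraries were compared by their root mean square difference. Among pairs in the family it was smallest for Hspb2 and Hspb6, at 0.44 log2 units. Hspb1 and Cryab came next at 0.54 log2 units, and each was the nearest member to the other. Their ratio was not constant. Hspb1 was 2.25, 2.90 and 4.04 times Cryab in saline 1, 2 and 3 and 5.39, 3.06 and 6.60 times in exosome 1, 2 and 3.

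Hspb8 encodes HSP22, which works with the co-chaperone BAG3 to deliver damaged proteins to autophagy. It stood at 8.92, 9.39 and 7.39 FPKM in the saline libraries and at 16.9, 8.42 and 28.9 FPKM in exosome 1, 2 and 3. Exosome 2 lay within the saline range, and the other exosome libraries were 1.97 and 3.37 times the saline mean. The log2 difference was 0.85 ± 0.37 (SE), with a 95% interval from -0.02 to 1.72 and a limma adjusted p of 0.319. Leaving out exosome 3 lowered it to 0.45 and leaving out exosome 2 raised it to 1.278.

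Hspb7 encodes a member known from heart and skeletal muscle that binds filamin C. It was the only one of the 6 whose groups did not overlap. Its values were 35.5, 12.2 and 14.7 FPKM in saline 1, 2 and 3 and 68.0, 46.3 and 166 FPKM in exosome 1, 2 and 3. Every exosome library was above every saline library, and exosome 2, the lowest exosome library, was still 2.23 times the saline mean. The means were 20.8 ± 12.8 and 93.5 ± 63.9 FPKM, a ratio of 4.50. The log2 difference was 2.06 ± 0.52 (SE), with a 95% interval from 0.83 to 3.28, an unadjusted limma p of 0.00504 and an adjusted p of 0.255, which did not pass. Among the fits with 1 library left out, the smallest value was 1.54, without exosome 3, and the largest was 2.51, without saline 1. With libraries weighted by their estimated reliability the limma adjusted p was 0.0436, the only setting in which a gene of the family passed, and over the 17 settings tried its adjusted p ran from 0.0436 to 0.589.

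The skeletal and cardiac muscle markers were uneven between libraries. Of 19 such genes 7 were tested, 11 had a mean under 1 FPKM and Myh4 was at 0 everywhere. Their summed level was 97.4, 49.9 and 63.0 FPKM in saline 1, 2 and 3 and 63.1, 51.3 and 124 FPKM in exosome 1, 2 and 3, so that exosome 3 and saline 1 were the highest. The cardiac actin gene Actc1 was high in the same libraries, at 33.0 and 29.1 FPKM, against at most 4.65 FPKM in the other 4. The skeletal genes Acta1 and Ckm were highest in saline 1, at 39.1 and 12.4 FPKM, and Mylpf was lowest in exosome 3, at 1.04 FPKM. The skeletal gene Tnnt3 was highest in exosome 3, at 24.2 FPKM. It stood at 14.6 and 22.7 FPKM in exosome 1 and 2 and at 13.6 to 18.5 FPKM with saline. Mb, also on the list, stood at 7.82 FPKM in exosome 3 against at most 0.28 FPKM elsewhere. Some other cardiac genes were seen mostly in exosome 3, but Myl7 was not, at 0.14 FPKM there and 0.52 FPKM in saline 3. Myl2 was at 0 in the other 5 libraries and at 2.08 FPKM in exosome 3. Myh7 stood at 5.68 FPKM in exosome 3 against at most 0.04 FPKM elsewhere, Tnni3 at 4.05 against at most 0.07 FPKM, and Tnnt2 at 8.58 against at most 0.71 FPKM. The part of such tissue in the values of Hspb7 and Cryab was not tested.

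Hspb6 encodes HSP20, a target of the cyclic nucleotide kinases during relaxation of smooth muscle. Its values were 75.7, 58.6 and 68.5 FPKM in the saline libraries and 69.1, 37.2 and 79.4 FPKM in the exosome libraries. Exosome 2 was the lowest and exosome 3 the highest library, but exosome 3 was only 1.17 times the saline mean. The log2 difference was -0.19 ± 0.27 (SE; 95% interval from -0.81 to 0.44), with a limma adjusted p of 0.729, and it turned to 0.14 without exosome 2. Gene models of Hspb6 and Lin37 overlap in GRCr8. No source used here gives the strand setting of the counting, so their reads may not be separated.

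Hspb2 encodes a partner of the myotonic dystrophy kinase. It stood at 70.2, 76.7 and 66.2 FPKM with saline and at 76.5, 68.4 and 53.3 FPKM with exosomes, and exosome 3 was the lowest library of the 6. It had the narrowest range of the 6 genes, with a log2 difference of -0.12 ± 0.15 (SE; 95% interval from -0.46 to 0.23) and a limma adjusted p of 0.694, and without exosome 3 it was 0.03. Hspb2 and Cryab are neighbours on rat chromosome 8 with overlapping gene models in GRCr8, so some of their reads may be shared. Their levels were not in a fixed ratio: Cryab was 7.40, 2.15 and 2.91 times Hspb2 in saline 1, 2 and 3 and 6.81, 1.74 and 15.5 times in exosome 1, 2 and 3.

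**Figure D2:**
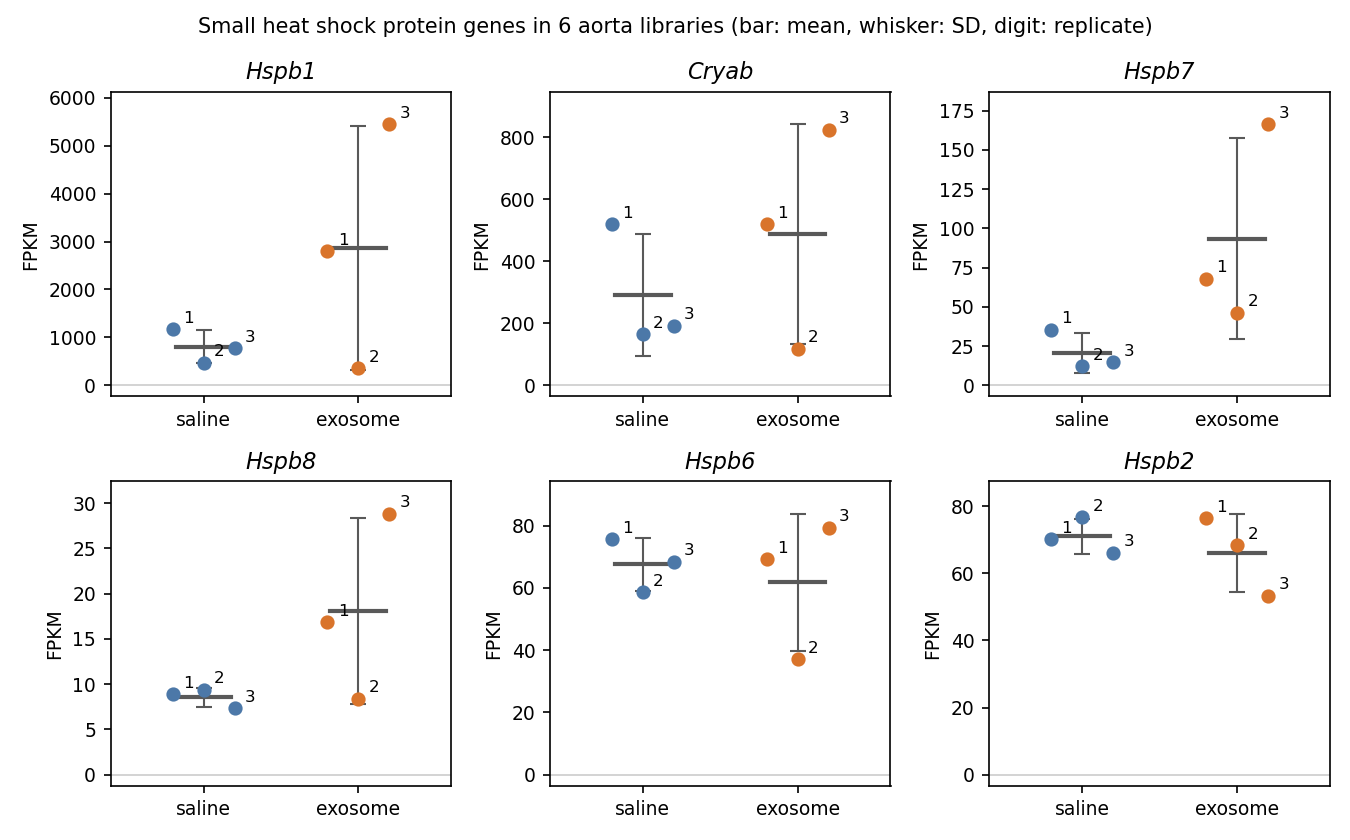
FPKM of the 6 measured small heat shock protein genes in each library, with the linear vertical axis of each panel including 0 (blue: saline, orange: exosome, digits: replicate numbers, bars: means, whiskers: SD, n = 3). Exosome 3 is the highest point for 5 genes and the lowest for Hspb2, and only Hspb7 has groups that do not overlap.

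Over all 6 genes, 4 were higher and 2 lower in the exosome group, with a median log2 difference of 0.69, where the median of all 11742 tested genes was -0.07. None passed an adjusted p of 0.05 in limma or with voom on recovered reads. Over all tested genes, 0.00852% passed as higher and 0% as lower. At an unadjusted p under 0.05, 1 of the 6 (Hspb7) passed, against 16% of all genes in either direction. Groups apart with exosome higher were found for 1 of 6 (Hspb7), against 9.4% of all genes, and with exosome lower for 0 of 6, against 11.7%. These counts were near the background. The signs of all 6 differences were the same under the 3 other scalings of the libraries.

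**Figure D3:**
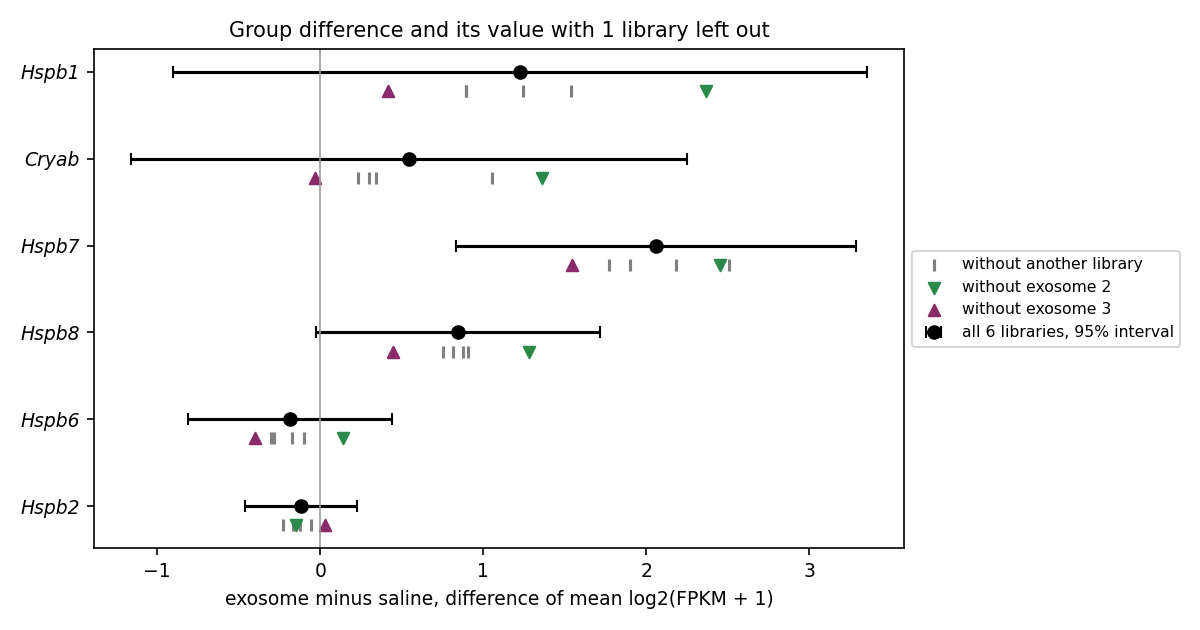
Exosome minus saline difference of the mean log2(FPKM + 1) for each gene (horizontal axis), with black points and bars for the fit to 6 libraries and its 95% interval and the marks under them for fits with 1 library left out. The interval lies above 0 for Hspb7 alone, and leaving out exosome 2 or exosome 3 gives the extreme values for Hspb1, Cryab, Hspb8 and Hspb6.

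The exosome libraries differed widely among themselves. For 5 of 6 genes (all but Hspb2) the highest exosome library was at least 2 times the lowest, against 10.5% of all tested genes. Hspb1 ranked 53, Cryab 110, Hspb7 273 and Hspb8 297 by this ratio among the 11731 tested genes above 0 in each exosome library, whose median ratio was 1.33. Hspb6 ranked 968 with a ratio of 2.14, and Hspb2 ranked 4396 with 1.43. The exosome libraries stood in the order 3, 1, 2 for the same 5 genes, against 14.8% of all genes. Exosome 1 and 3 were the 2 highest of the 6 libraries for Hspb1, Cryab, Hspb7 and Hspb8 (4 of 6), against 9.77%, and exosome 2 was the lowest for Hspb1, Hspb6 and Cryab (3 of 6), against 9.13%. The implied totals of the exosome libraries had this order as well, at 44561082 reads in exosome 3, 34369879 in exosome 1 and 28063355 in exosome 2. FPKM is scaled to the total, and the part of depth in this order was not tested. The library orders given here, and those for the saline libraries below, were taken from the values of these same genes. Their excess over all genes therefore describes the family and tests nothing.

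**Figure D4:**
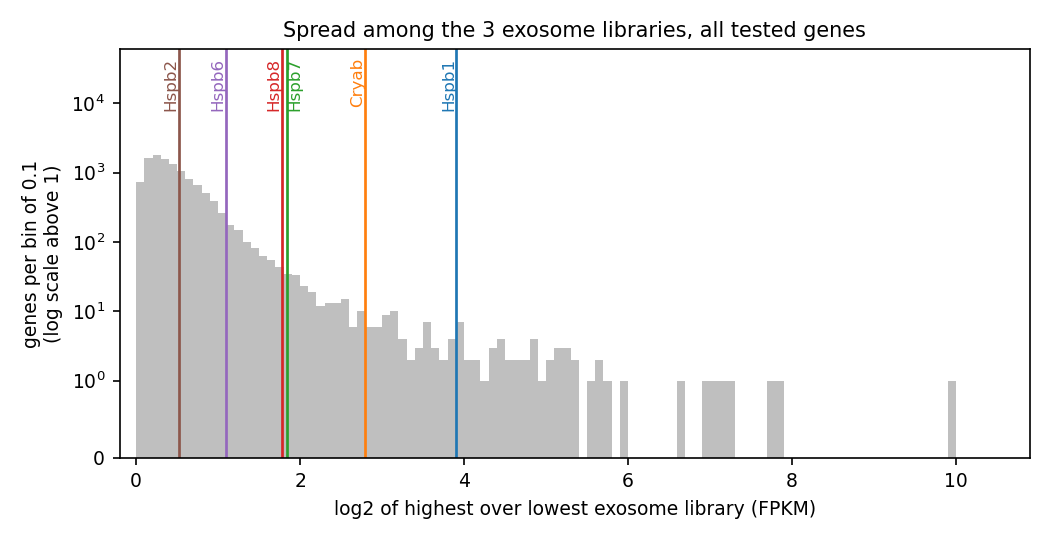
Spread within the exosome group, where the horizontal axis is the log2 ratio of the highest to the lowest exosome library, the vertical axis the number of genes per bin of 0.1 on a log scale above 1, for the 11731 tested genes above 0 in each exosome library. Coloured lines mark the 6 genes, with Hspb2 near the bulk of the genes and Hspb1 farthest out.

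The saline libraries varied in a shared order too. Hspb1, Hspb6, Hspb7 and Cryab stood in the order saline 1, 3, 2 (4 of 6 genes), against 16.8% of all tested genes. For Hspb1, Hspb6 and Cryab (3 of 6), exosome 3, exosome 1 and saline 1 were the 3 highest libraries, against 6.08% of all genes. Among 11 smooth muscle markers, 4 had these 3 libraries on top. They were Acta2, Tagln, Cnn1, which encodes calponin, and Actg2, which encodes a smooth muscle actin. The other markers of the list did not, and Myh11, Smtn, Cald1 and Mylk were lowest in exosome 3, at 1463, 189, 609 and 314 FPKM. The mean centred level of all 11 was -0.01 log2 units in exosome 3, against 0.32 in saline 1 and 0.20 in exosome 1. Actg2 stood at 846, 193 and 296 FPKM in saline 1, 2 and 3 and at 612, 206 and 603 FPKM in exosome 1, 2 and 3, a profile with the same libraries high and low as Cryab. The summed smooth muscle level ran from 18089 to 27990 FPKM with saline and from 19363 to 27179 FPKM with exosomes. In proportion this range was narrower than that of Cryab or Hspb1, but it is a sum of 11 genes beside single genes. Actg2 alone ran from 193 to 846 FPKM. These 4 markers had the same 3 highest libraries as Hspb1, Hspb6 and Cryab, and their part in the result was not tested.

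The larger chaperones were read from a list of 21 chaperones and co-chaperones known as HSF1 targets, which was drawn up with earlier results of these data known. Of 20 tested genes, 19 were higher with exosomes and 1 lower, with a median log2 difference of 0.92. None passed in limma, and 4 had an unadjusted p under 0.05, near the 16% of all genes. They were the HSP70 and HSP90 organising gene Stip1 (log2 difference 1.23), the HSP90 activator Ahsa1 (0.78), Cacybp (1.16) and Chordc1 (1.059), with adjusted p from 0.289 to 0.308 in limma. Like the small family, 16 of the 20 had exosome 3 and exosome 1 as the 2 highest libraries (9.77% of all genes). The exosome order 3, 1, 2 was seen for 19 of these chaperones (14.8% of all genes). Their mean centred level was 0.69, -0.70 and 1.24 log2 units in exosome 1, 2 and 3, beside 0.60, -0.66 and 1.15 for the small family. In saline 1, 2 and 3 it was -0.72, -0.48 and -0.04 for the chaperones and 0.10, -0.67 and -0.52 for the small family, so that the list means placed saline 1 differently. Gene by gene, saline 1 was the lowest saline library for 12 of 20 chaperones, against 46.2% of all tested genes, and the highest for 4 of the 6 small heat shock protein genes, against 28.7%. Hspa1a, the inducible HSP70 gene, stood at 6.27, 44.3 and 146 FPKM in saline 1, 2 and 3, and at 272, 10.6 and 427 FPKM in exosome 1, 2 and 3. Its near-identical copy Hspa1b, with which it may share reads, was not analysed here. Of the 18 listed chaperones with a promoter sequence, 11 held a heat shock element pair and 5 a triple, against 13.2% and 0.597% of all promoters.

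**Figure D5:**
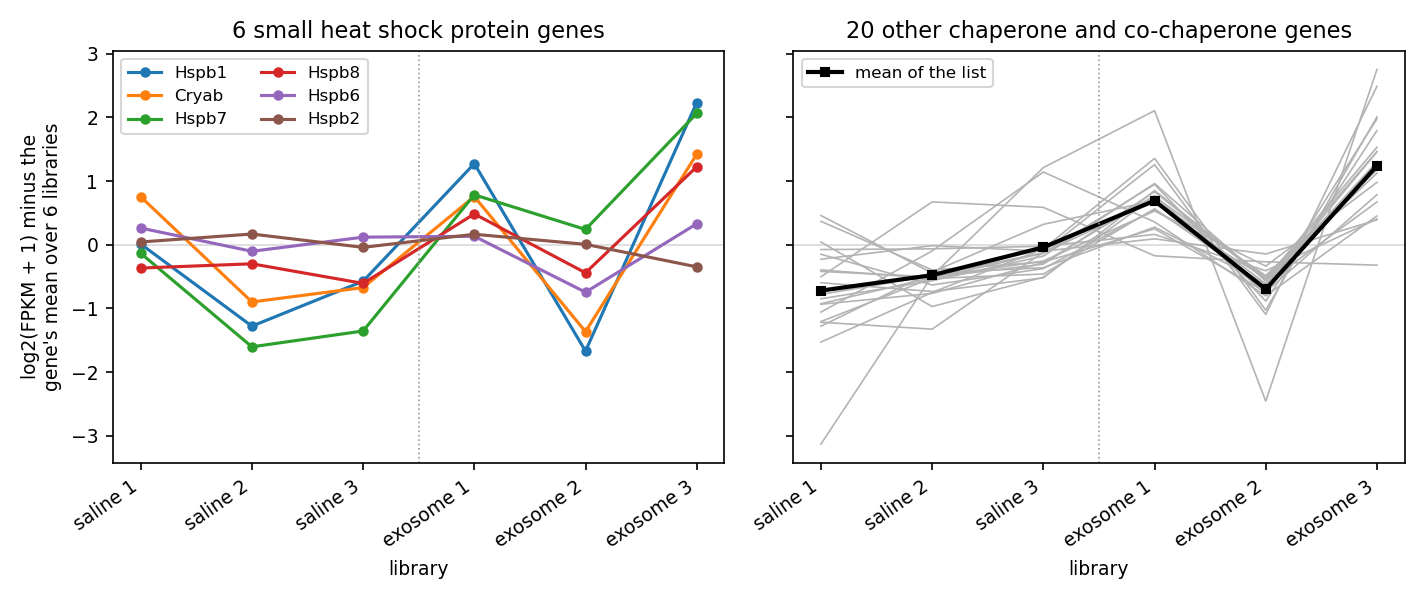
Centred profiles over the 6 libraries, as log2(FPKM + 1) minus the gene's own mean (vertical axis), with saline libraries left and exosome libraries right of the dotted line, where the left panel shows the 6 small heat shock protein genes and the right panel the 20 tested chaperones in grey with their mean in black. Both panels dip at exosome 2 and peak at exosome 3 for most genes, and in saline 1 the chaperone mean is at -0.72 while Cryab is high.

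None of the 4 heat shock factor and regulator genes passed in limma, and 0 had an unadjusted p under 0.05, against 16% of all genes. Hsf1 lay between 13.2 and 17.2 FPKM in all libraries, with a log2 difference of 0.10 (limma adjusted p = 0.694). The other heat shock factor genes Hsf2 (-0.12) and Hsf4 (-0.15) and the HSF1-binding protein gene Hsbp1 (-0.14) did not pass, with adjusted p between 0.523 and 0.655 in limma. RNA level does not show HSF1 activity, which is set mainly on the protein. Of 8 kinase genes whose products phosphorylate small heat shock proteins or act upstream, 4 were higher and 4 lower. None passed in limma, and 2 had an unadjusted p under 0.05, against 16% of all genes. They were Prkaca, a catalytic subunit of protein kinase A (log2 difference -0.39 ± 0.11 SE, limma adjusted p = 0.255), and Mapkapk2, which encodes MK2 (0.35 ± 0.12 SE, limma adjusted p = 0.281).

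Among 9 partners in chaperone-assisted autophagy, 5 were higher and 4 lower. None passed in limma and 0 had an unadjusted p under 0.05, against 16% of all genes. Bag3, the partner of HSPB8, stood at 42.4, 77.2 and 130.4 FPKM in saline 1, 2 and 3 and at 169, 67.9 and 259 FPKM in exosome 1, 2 and 3. It had the exosome order of Hspb8 but a wider saline range. Flnc, which encodes the HSPB7 partner filamin C, stood at 46.8, 24.8 and 26.2 FPKM with saline and at 64.0, 27.1 and 85.9 FPKM with exosomes, with saline 1 high as for Hspb7 but with exosome 2 inside the saline range. All 6 tested genes of intermediate filaments and their linkers were higher with exosomes, with a median log2 difference of 0.51. None passed in limma, and 4 had an unadjusted p under 0.05, against 16% of all genes. They were Plec (0.80), Sync (0.97), Lmna (0.44) and Des (0.57), the desmin gene, with limma adjusted p from 0.268 to 0.309.

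The endoplasmic reticulum stress genes, which answer to other factors than HSF1, had 11 of 16 higher and 5 lower with a median log2 difference of 0.09. None passed in limma (4 at an unadjusted p under 0.05, against 16% of all genes). Their exosome values never differed by 2 times (0 of 16 genes, against 10.5% of all tested genes). Immediate early genes, a class switched on quickly by many stimuli, were at a summed 1359 to 2769 FPKM with saline and 824 to 1291 FPKM with exosomes. Of 18 tested, 13 were lower and 5 higher, and none passed in limma (9 at an unadjusted p under 0.05, against 16% of all genes). Their mean centred level was -0.62, -0.62 and 0.22 log2 units in exosome 1, 2 and 3. Single genes differed between exosome 1 and 2 in both directions, with Fos at 8.06 and 30.8 FPKM and Nr4a3 at 28.2 and 4.49 FPKM. Their part in the heat shock values was not tested.

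Marker sums of 2 other cell types were apart between the groups. Macrophage markers summed to 187 to 191 FPKM with saline and 214 to 269 FPKM with exosomes, and endothelial markers to 110 to 158 and 166 to 243 FPKM. The groups of Hspb7 were apart too, and the endothelial sum was highest in exosome 2, where Hspb1 and Cryab were lowest. Adipocyte markers summed to 454 to 1323 FPKM with saline and 508 to 926 with exosomes, fibroblast markers to 2375 to 3287 and 2394 to 2872, Schwann cell markers to 17.1 to 46.5 and 15.8 to 30.3, and red cell markers to 367 to 1041 and 220 to 657 FPKM. Each of these 4 sums overlapped between the groups. The part of any of these cell types in the values of the family was not tested.

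Genes outside the family with the most similar profiles were found by the root mean square difference of centred log2(FPKM + 1) values over the 6 libraries. Nearest to Hspb1 were Fam189a2 (0.41 log2 units), Tnfrsf12a (0.43) and Arsi (0.45), and nearest to Cryab were Arsi (0.19), Fjx1 (0.26) and Ino80b (0.31). Arsi, which encodes an arylsulfatase, stood at 20.04, 6.42 and 8.55 FPKM in saline 1, 2 and 3 and at 26.3, 3.25 and 36.6 FPKM in exosome 1, 2 and 3. Hspb1 was thus nearer to these 3 genes than to Cryab. Hspb7 was nearest to Ppp1r13l (0.50), Slc7a1 (0.51) and Itga5 (0.56), the last encoding a fibronectin receptor subunit. Hspb8 was nearest to Tiam2 (0.13), Sphk1 (0.13) and Gadd45b (0.15), a stress-response gene at 3.69 to 4.40 FPKM with saline and 9.47, 5.03 and 18.6 FPKM in exosome 1, 2 and 3. Hspb6 was nearest to Trem2 (0.09), Npas4 (0.10) and the collagen gene Col3a1 (0.11), and Hspb2 to Pfdn4, Gpatch11 and Cd48 (0.05 to 0.06).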

How the data were processed

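Total RNA of rat aorta was sequenced in 6 libraries made with the SMARTER mRNA-seq kit, per the labels' protocols. The authors deposited FPKM in 1 table of 24005 symbols. The submitters' processing notes list DESeq2 1.28.1 with no role. No source used here gives the aligner, counter, strand setting, build or annotation.

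Low FPKM values fell on even steps in each library. From these steps reads, gene lengths and library totals were recovered for all 18430 genes above 0, where a read may stand for a read pair. For each gene the smallest length was taken that put its reads within 0.02 of whole numbers. This limit was set beforehand and is not a measured error. Reads of a gene whose numbers share a factor may be too low.

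Groups were compared two-sided with limma 3.58.1 (R 4.3.3, intensity trend) on log2(FPKM + 1) for the 11742 genes with a mean of at least 1 FPKM, and Benjamini-Hochberg adjustment across all genes at 0.05. The scale understates changes of low genes. No gene list was tested as a set. Members and lists were chosen with earlier results of these data known. Named genes were the members, the 3 nearest genes of each, up to 4 genes per list by smallest p, small lists in full, markers at or near 0, and overlapping neighbours. Genes named outside this rule (such as Hspa1a, Tagln, Actg2, Actc1, Fos and Nr4a3) were chosen with their values known. Other settings tried were a pseudocount of 0.1, other filters, 3 scalings, other variance models, a replicate block, voom on recovered reads, and each library left out. Library weights used the gene-by-gene estimate, because the other estimate did not converge. The fit and the read recovery were tested on simulated data. Sequences are from RefSeq (GRCr8). Other steps used Python 3.11.15 with pandas 2.3.3 and numpy 2.4.6, and figures matplotlib 3.10.9.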

Additional observations from a re-analysis of the deposited data

How the results depend on the processing

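No gene of the family passed the adjusted threshold in limma with all 6 libraries or in 16 of the 17 other settings. With library weights 1 passed, Hspb7 (log2 difference 2.24), in a fit that called 256 genes higher and 362 lower, against 1 and 0 with equal weights. Under library weights Hspb6 turned to 0.0398. With 1 library left out, the number of genes whose groups did not overlap ranged from 1 to 4, the highest without exosome 2. Groups are apart more easily with fewer libraries. The share of all genes was computed only with 6 libraries (9.4% higher, 11.7% lower), so the count of 4 has no background. In fits with 1 library left out, the median log2 difference ranged from 0.22 without exosome 3 to 1.32 without exosome 2. Sign turned in such fits for Hspb2 (-0.23 to 0.0287, the latter without exosome 3), Hspb6 (-0.40 to 0.138, without exosome 2) and Cryab (-0.0315, without exosome 3, to 1.36). The number passing was 0 in each of them. Hspb1 kept its sign, from 0.42 to 2.37, as did Hspb8, from 0.45 to 1.278, and Hspb7, from 1.54 to 2.51. The cause was not tested. The labels number the libraries 1 to 3 in both groups without saying that a number pairs them, so they were not treated as pairs. Deviations of same-numbered libraries correlated at 0.07, 0.10 and -0.17 across genes. Those of unlike-numbered libraries ran from -0.24 to 0.21, so these correlations cannot decide whether the libraries were paired. With a replicate block 0 genes of the family passed and the limma adjusted p of Hspb7 was 0.260. With 3 libraries a group, the 95% intervals of Hspb1 and Cryab span more than 3 log2 units, so differences of several times would not have been detectable. Depth limits what can be said of Hspb3 and Hspb9.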
